A study of Mus musculus with 25 samples.

Results

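The pituitaries of sh*Rb* mice taken 3 days after doxycycline (dox) was removed were compared with those of sh*Rb* mice still on dox. The 6 mice of this comparison, out of 25 in the series, were selected by their treatment labels: 3 mice had 16 weeks of dox (16w +dox) and 3 had 16 weeks of dox followed by 3 days without it (3d -dox). All 6 were male. RNA of whole pituitaries, which carry tumors at this age, was sequenced after depletion of ribosomal RNA, and 13958 of the 14007 genes listed could be tested. In these mice a Tet-ON transgene at the *Col1a1* locus drives GFP and an shRNA that targets *Rb*, and another transgene supplies the reverse transactivator M2-rtTA, which dox activates. The transactivator is expressed broadly, so the knock-down is not restricted to pituitary cells. Both groups carried both transgenes. The dox-treated mice drank dox with sucrose while the water of the mice off dox held neither, so that the removal of dox and of sucrose cannot be told apart. Mice sequenced 1 day (1d -dox, n = 4) and 5 days (5d -dox, n = 3) after dox removal were female, so that sex and day cannot be told apart where these groups are set beside the 6 males.

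RB, the product of *Rb1*, holds E2F transcription factors in check and thereby restrains the genes that cells need for DNA replication and division. Mice that lose RB develop pituitary tumors, most often from the melanotrophs of the intermediate lobe, which make the prohormone POMC and cut it into melanocyte-stimulating hormone and related peptides. Those peptides are stored with granins in dense-core vesicles, and the enzymes that cut and trim prohormones travel in the same vesicles. Once dox is withdrawn, transcription of the shRNA and of GFP stops, and the remaining RNA decays before RB can return.

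The sequence that the shRNA was designed against shows which part of the *Rb1* transcript it marks for decay. The 21-base site was found in 1 transcript of 1 gene, *Rb1*, in exon 22 of 27, within the coding region, at chr14:73206076-73206096 on the minus strand of mm10 (GRCm38), which corresponds to positions 2399 to 2419 of the transcript. It is printed 5′ to 3′ as the sense strand of the transcript.
*Rb1* target site: gaggagtttgattccattata

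The libraries held between 10483790 and 13036900 reads on genes, recovered as whole reads from a level scaled by size factors (FPM), which is the unit used throughout. The melanotroph markers *Pomc*, *Pax7* and *Pcsk2* were present in every mouse, and *Pomc* alone took 12.3% to 12.96% of the gene reads at 16w +dox and 4.96% to 10.6% at 3d -dox. Of the 6 mice, 16w +dox replicate 2 stood apart from its group: its log2 levels correlated with those of the other 16w +dox mice at 0.9741 and 0.9746, while those 2 correlated at 0.993. Its summed oligodendrocyte and brain markers were at 84.3 FPM, against 43.4 and 42.5 FPM in the other mice on dox and 47.3 to 51.7 FPM off dox. Its neural lobe markers were at 9.92 FPM, against 4.24 and 4.77 FPM on dox and 3.99 to 7.04 FPM off dox. The part of this difference in the results was not tested. Among the mice off dox, 3d -dox replicate 3 had the lowest *Pomc* and the most blood cell RNA. The share of all reads assigned to no annotated feature, which can lie in introns or between genes, was 26.7%, 25.1% and 27.2% on dox and 29.6%, 29.8% and 33.9% off dox, without overlap. Unmapped reads (36.1% to 37.0% on dox, 31.0% to 35.4% off dox) and reads with several positions (6.90% to 7.41% and 5.63% to 6.51%) did not overlap either. The part of these shares in the results that follow was not tested.

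GFP fell and *Rb1* did not pass the test. The reporter was at 1360.4, 1025 and 1354 FPM in the 3 mice on dox and at 113, 171 and 80.7 FPM in the 3 mice 3 days off dox. Every mouse off dox was below every mouse on dox, by a wide margin. The log2 fold change was -3.41 with a standard error (SE) of 0.31, which leaves 0.0942 of the level on dox (limma with Benjamini-Hochberg adjustment over all genes, adjusted p = 3.34e-04). An exact two-sided permutation test over the 6 mice gave p = 0.1, the smallest that 3 against 3 mice allow. The mean fell from 1246.5 FPM on dox to 606 after 1 day, 122 after 3 days and 11.7 after 5 days, the first and last of these off-dox groups being female.

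*Rb1* was measured at 4.89, 3.47 and 4.21 FPM on dox and at 4.71, 4.28 and 6.03 FPM after 3 days. The groups overlapped, and the highest value belonged to 3d -dox replicate 3. The log2 fold change was 0.23 (SE 0.17, 95% confidence interval -0.14 to 0.60, limma adjusted p = 0.532), so that a rise of 0.60 on the log2 scale lies within the error of these 6 mice. *Rb1* overlaps *Lpar6* and *Mir687* on the genome, and whether strand was used in counting is not given in the sources used here. In the long-term experiment, where other mice had 6 weeks of dox and then 6 weeks without (12w-res, n = 5) or 12 weeks of dox (12w+dox, n = 4), *Rb1* averaged 18.2 FPM off dox against 3.21 FPM on dox, a log2 fold change of 2.35.

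**Figure D1:**
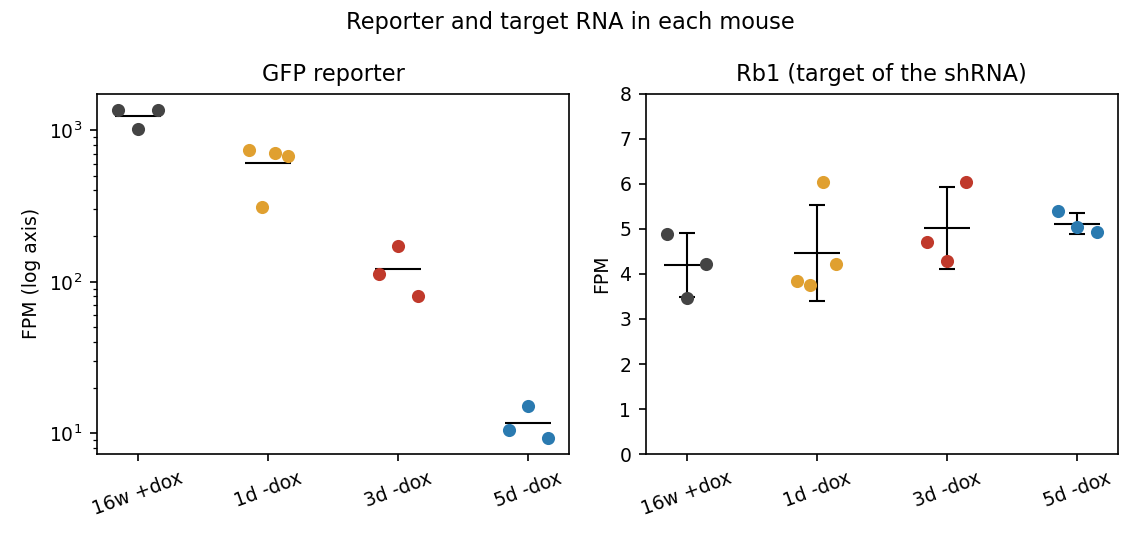
*GFP* (left, log axis) and *Rb1* (right) in FPM for each mouse of the 4 groups of the short-term experiment. Each point is 1 mouse, the horizontal bars are group means and the error bars on the right are 1 SD. GFP drops with each group, to 80.7 to 171 FPM at 3d -dox, while the *Rb1* points of 16w +dox and 3d -dox overlap. The 1d -dox and 5d -dox mice are female.

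The cell cycle genes that RB restrains through E2F did not pass the test at 3 days. *Pcna*, the clamp that holds DNA polymerase on its template, was at 27.2, 20.2 and 26.6 FPM on dox and at 23.5, 23.1 and 27.5 FPM off dox. The groups overlapped, with a log2 fold change of 0.0092 (SE 0.14, 95% confidence interval -0.28 to 0.30). *Ccne2*, which encodes a cyclin of the entry into S phase, had a log2 fold change of 0.047 (-0.35 to 0.45), and *Cdk1*, the kinase of mitosis, one of 0.12 (-0.27 to 0.52). *Mcm3*, a subunit of the replicative helicase, had a log2 fold change of 0.17 (-0.14 to 0.48) and *E2f8*, a repressor that E2F itself induces, 0.28 (-0.17 to 0.72). All 5 estimates were above 0 and all 5 intervals include 0. Those of *Pcna* and *Ccne2* went below 0 without 16w +dox replicate 2, to -0.12 and -0.16, and that of *Cdk1* without 3d -dox replicate 3, to -0.016. In the long-term mice the same genes were lower in 12w-res than in 12w+dox, with log2 fold changes from -2.15 (*Ccne2*) to -3.46 (*Cdk1*), and no interval at 3 days reaches that far.

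None of the 40 genes of DNA replication or the 34 of mitosis passed the adjusted p at 3 days. The replication list had a median log2 fold change of 0.11, with 32 of 40 members above 0, and the mitosis list one of 0.10, with 25 of 34 above 0, where the median over all tested genes was 0.0092 and 51.9% of all genes were above 0. The replication median was 0.052 when 16w +dox replicate 2 was left out and 0.077 when 3d -dox replicate 3 was. The mitosis median fell below 0 when 1 mouse was left out, to -0.020 for 3d -dox replicate 3 and to -0.035 for 16w +dox replicate 2. *Mki67*, the proliferation marker, was at 130, 87.5 and 103 FPM on dox and at 131, 116 and 208 FPM off dox. The value in 3d -dox replicate 3 stood above all others, and the remaining mice overlapped.

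The clustered histone genes, which are transcribed in S phase, had a median of 0.19, with 50 of 58 members above 0 and 12 past an unadjusted p of 0.05, all 12 higher, where 7.95% of all genes were higher at that p. Leaving out 16w +dox replicate 2 brought the median to 0.039. *Hist1h2ai* had 3.89, 3.88 and 6.58 FPM on dox against 7.32, 10.3 and 10.2 FPM off dox, without overlap, at an adjusted p of 0.0843 by limma. Such histone genes are near-identical copies, so that the share of reads each one received is uncertain.

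Within the RB and E2F pathway itself, 0 of 34 genes passed the adjusted p, 4 were higher and 4 lower at an unadjusted p under 0.05, where 7.95% and 8.7% of all genes were, and the median was 0.067. Leaving out 16w +dox replicate 2 gave -0.0056 and leaving out 3d -dox replicate 3 gave 0.014. *Cdkn2a*, which encodes the CDK inhibitor p16 and the p53 activator p19ARF, was at 3.24, 2.30 and 2.73 FPM on dox and at 1.35, 1.22 and 1.46 FPM off dox. Its neighbour *Cdkn2b*, which encodes the CDK inhibitor p15, was at 1.30, 1.74 and 1.15 FPM on dox and at 0.565, 0.714 and 0.700 FPM off dox. In both genes every mouse off dox lay below every mouse on dox, while 21.6% of all genes had no overlap in either direction. The log2 differences were -0.81 (SE 0.23) and -0.70 (SE 0.16), with limma adjusted p of 0.120 and 0.0737. *Ccnd2*, a D-type cyclin that activates the kinases of RB, had the opposite sign, with 3.84, 3.80 and 4.57 FPM on dox and 8.39, 4.92 and 9.28 FPM off dox (log2 fold change 0.77, adjusted p 0.102 by limma).

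Across all genes, 11 were called higher and 7 lower at 3 days (adjusted p under 0.05 and a log2 fold change beyond 1 in either direction), which is 0.0788% and 0.0502% of the genes tested. In all 18 the mice off dox did not overlap with the mice on dox, as was the case for 21.6% of all genes. Without a minimum fold, 22 genes were higher and 28 lower (0.158% and 0.201%), while 1109 were higher and 1214 lower when p was not adjusted and only had to lie under 0.05 (7.95% and 8.7%). The counts leaned on the number of mice in the fit, which took its spread from all 13 mice of the short-term experiment: with the 6 males alone, limma called 0 genes higher (976 at an unadjusted p under 0.05) and 1 lower, which was GFP. Single mice mattered as well. Without 16w +dox replicate 1, 2 or 3 the calls were 3, 7 and 0 higher and 1, 4 and 2 lower, and without 3d -dox replicate 1, 2 or 3 they were 1, 30 and 0 higher and 1, 9 and 2 lower, GFP being the gene called each time. Scaled by totals of recovered reads, which moved the median of all genes to 0.143, the calls were 15 higher and 3 lower. edgeR's quasi-likelihood test on the recovered reads called 8 higher and 7 lower (0.0573% and 0.0502%), and DESeq2 72 and 32 (0.516% and 0.229%).

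**Figure D2:**
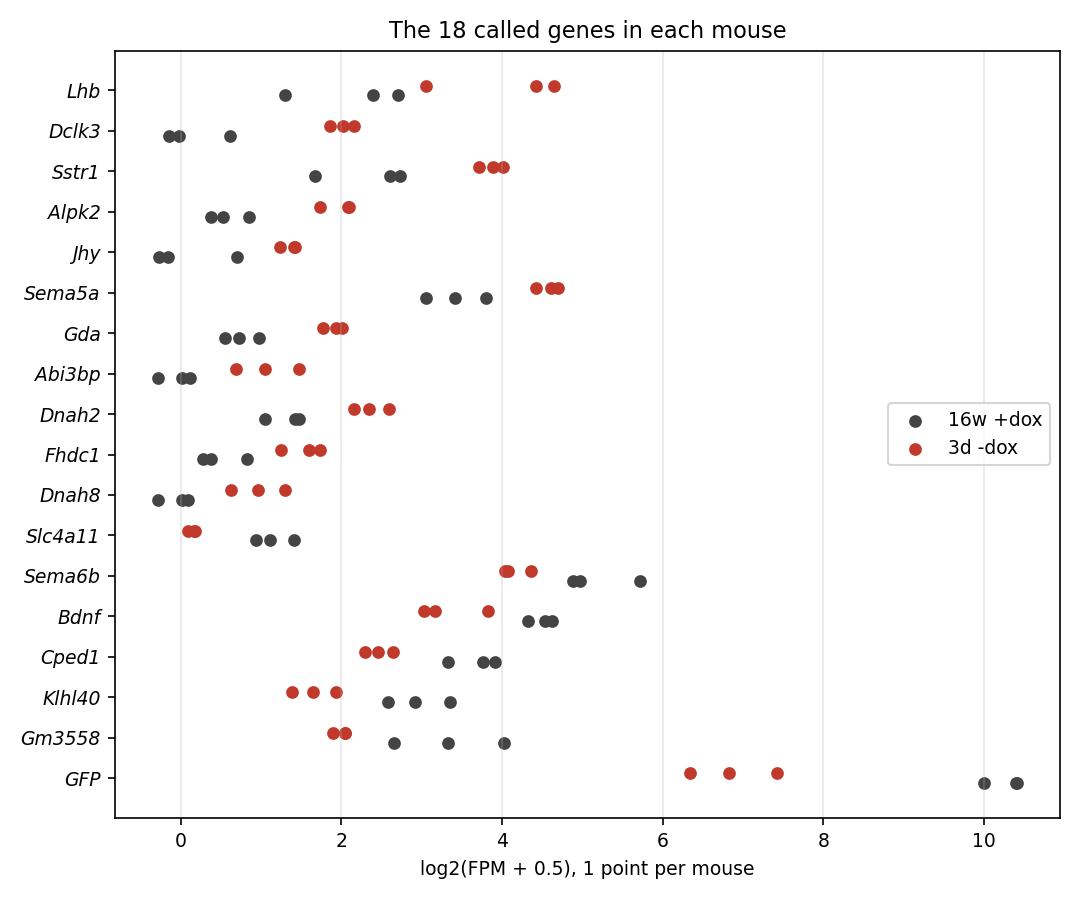
Each of the 18 called genes in the 6 mice, as log2(FPM + 0.5) on the horizontal axis, with grey points for 16w +dox and red points for 3d -dox, ordered by the fitted change. The 2 colours do not overlap in any row, and GFP is the row with the widest gap.

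Of the called genes that rose, *Sstr1* (chr12:58211421-58216037 on mm10) encodes a receptor for somatostatin, the peptide that restrains hormone release. It was at 6.14, 2.70 and 5.59 FPM on dox and at 15.6, 14.3 and 12.7 FPM off dox, more than in any mouse on dox, and the log2 fold change was 1.53 (SE 0.23, limma adjusted p = 0.0284). *Dclk3*, which encodes a kinase of the doublecortin-like family, went from 1.02, 0.401 and 0.485 FPM to 3.56, 3.12 and 3.95 FPM (log2 fold change 1.87, SE 0.34). *Sema5a*, which encodes a transmembrane semaphorin that guides axons, was at 13.4, 7.80 and 10.1 FPM on dox and at 25.4, 20.99 and 23.9 FPM off dox (1.16, SE 0.20). In these 3 genes the lowest value on dox belonged to 16w +dox replicate 2, although the other mice on dox also stayed below every mouse off dox.

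*Gda*, which encodes guanine deaminase, an enzyme of purine breakdown, was at 1.47, 1.15 and 0.970 FPM on dox and at 3.52, 2.92 and 3.31 FPM off dox (log2 fold change 1.15, SE 0.18). *Alpk2*, which encodes an alpha-type protein kinase, was at 1.30, 0.802 and 0.944 FPM on dox and at 2.82, 3.73 and 3.77 FPM off dox, with the smallest adjusted p after GFP (1.38, SE 0.18, limma adjusted p = 0.0149). The called genes *Dnah2*, *Dnah8* and *Jhy* belong to motile cilia, the former pair as dynein heavy chains. *Dnah2* had 2.27, 1.58 and 2.17 FPM on dox against 4.58, 3.98 and 5.54 FPM off dox (1.05, SE 0.18). *Dnah8* and *Jhy* were fitted at 1.02 and 1.26 and started from 0.324 to 0.561 and 0.332 to 1.12 FPM on dox, with as few as 13 reads in a mouse. *Abi3bp*, which encodes an extracellular matrix protein, and *Fhdc1*, which encodes a formin that acts on actin and microtubules, were fitted at 1.12 and 1.03.

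*Lhb* (chr7:45417608-45421855), which encodes the beta subunit of luteinizing hormone, had the largest called rise. It was at 4.74, 1.95 and 6.00 FPM on dox and at 20.99, 7.77 and 24.5 FPM off dox. The lowest mouse off dox, replicate 2, lay just above the highest mouse on dox, and the log2 fold change was 1.91 (SE 0.38, limma adjusted p = 0.0476). *Fshb*, the beta subunit of follicle-stimulating hormone, was at 5.22, 0.882 and 9.57 FPM on dox and at 36.9, 15.01 and 45.9 FPM off dox, again without overlap (2.80, SE 0.58, limma adjusted p = 0.0584). Both hormones are made by gonadotrophs of the anterior lobe. The alpha subunit shared by both, *Cga*, did overlap, at 4.52, 51.1 and 7.38 FPM on dox and 26.05, 8.77 and 35.7 FPM off dox. Likewise, the receptor that drives gonadotrophs, *Gnrhr*, was at 1.65, 18.4 and 2.35 FPM on dox and at 12.5, 4.43 and 16.0 FPM off dox. The high value on dox was 16w +dox replicate 2 in both genes, the same mouse that was lowest on dox for *Lhb* and *Fshb*.

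The 7 gonadotroph markers together summed to 20.3, 97.6 and 30.8 FPM on dox and to 117, 45.3 and 156 FPM off dox, so that the groups overlapped. All 7 had estimates above 0, with a median of 1.06, which was 1.72 without 16w +dox replicate 2 and 0.72 without 3d -dox replicate 3. Markers of the other anterior lobe cells were highest in the same 2 mice off dox. Somatotroph, lactotroph and thyrotroph markers summed to 186, 189 and 178 FPM on dox and to 423, 139 and 782 FPM off dox. *Gh*, growth hormone, was at 175, 85.4 and 161 FPM on dox and 387, 125 and 696 FPM off dox. It carried most of the sum of these markers in every mouse except 16w +dox replicate 2. *Tshb*, the beta subunit of thyroid-stimulating hormone, did not overlap between groups but reached only 0.0510 to 0.561 FPM on dox and 0.775 to 2.55 FPM off dox (log2 fold change 1.40, limma adjusted p = 0.111). In tissue of mixed cells, a change in the number of cells of a type and a change in RNA per cell cannot be told apart. The part of anterior lobe cells in the rise of *Lhb* was not tested.

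The called genes that fell, besides GFP, were *Bdnf*, *Sema6b*, *Cped1*, *Klhl40*, *Slc4a11* and *Gm3558*. *Bdnf* (chr2:109674700-109727043), which encodes the secreted neurotrophin BDNF, was at 19.6, 24.1 and 22.6 FPM on dox and at 7.69, 13.6 and 8.44 FPM off dox (log2 fold change -1.15, SE 0.23, limma adjusted p = 0.0476). *Sema6b*, which encodes another transmembrane semaphorin, was at 29.1, 52.1 and 30.8 FPM on dox and at 16.3, 20.01 and 15.9 FPM off dox (-1.04, SE 0.19). It moved opposite to *Sema5a*. *Cped1*, which encodes a cadherin-like protein, fell from 9.56, 14.5 and 13.1 FPM to 5.00, 5.73 and 4.43 FPM (-1.20, SE 0.22).

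*Klhl40*, best known from skeletal muscle as a stabilizer of thin filament proteins, was at 7.04, 9.76 and 5.49 FPM on dox and at 2.63, 3.30 and 2.12 FPM off dox (-1.30, SE 0.22). It overlaps *Hhatl* on the genome. The summed skeletal muscle markers, of which only 2 of 8 were measured, overlapped between the groups (62.1 to 108 FPM on dox, 73.5 to 102 FPM off dox). *Slc4a11*, which encodes a membrane transporter of the bicarbonate transporter family, was at 1.42, 2.16 and 1.66 FPM on dox and 0.565, 0.632 and 0.618 FPM off dox (-1.01, SE 0.19). *Gm3558* belongs to a family of near-identical copies on chromosome 14, so its fitted change of -1.34 is uncertain.

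Below the fold limit, the genes past the adjusted p that fell include 3 of prohormone processing, given further on, and those that follow, which were chosen for description after their values were seen. *Cald1*, the actin-binding protein caldesmon, fell from 76.8, 88.5 and 83.0 FPM to 48.4, 46.5 and 46.2 FPM (log2 fold change -0.81). *Gap43*, a membrane protein of growing neurites, fell from 7.44, 5.88 and 6.35 FPM to 2.41, 3.51 and 3.52 FPM (-0.96), and *Lmna*, the nuclear lamins A and C, from 74.1, 81.0 and 63.9 FPM to 47.3, 50.7 and 43.0 FPM (-0.63). *Etv5*, an ETS factor induced by growth factor signaling, changed by -0.60 and *Dusp3*, a phosphatase, by -0.42. Among those that rose, *Zfp36l2*, which destabilizes messenger RNA, went from 10.4, 10.3 and 9.67 FPM to 15.8, 15.9 and 15.2 FPM (0.60), with little spread in either group, and *Crtac1*, a secreted matrix protein, from 5.69, 5.51 and 5.23 FPM to 10.9, 8.87 and 11.2 FPM (0.85).

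The genes of prohormone processing and the granins had the lowest median of the lists. Of the 17 measured members, 3 passed the adjusted p and all 3 were lower, 12 were lower at an unadjusted p under 0.05 where 8.7% of all genes were, and the median log2 fold change was -0.53. Leaving out 3d -dox replicate 3 gave a median of -0.45, leaving out 16w +dox replicate 2 one of -0.52, and scaling by totals of recovered reads one of -0.38. The 3 that passed were *Scg5*, the chaperone 7B2 of the convertase PC2, *Ctsl*, cathepsin L, which also cuts prohormones in secretory vesicles, and *Nucb2*, the precursor of nesfatin. *Scg5* was at 178, 207 and 187 FPM on dox and at 127, 129 and 117 FPM off dox (log2 fold change -0.62, SE 0.11, limma adjusted p = 0.0413). *Ctsl* was at 58.6, 68.8 and 62.9 FPM on dox and 44.0, 44.6 and 37.1 FPM off dox (-0.59, SE 0.10). *Nucb2* was at 48.2, 55.4 and 55.7 FPM on dox and 28.4, 26.7 and 25.7 FPM off dox (-0.96, SE 0.19). In all 3 the groups were well apart and the mice within each group were close.

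The other members of the list missed the adjusted p. *Pcsk2*, the convertase PC2 that makes melanocyte-stimulating hormone from POMC, was at 789, 726 and 883 FPM on dox and at 564, 653 and 458 FPM off dox (-0.53, limma adjusted p = 0.153). *Chga*, the granin chromogranin A, was at 3897, 5321 and 4572 FPM on dox and at 2931, 3146 and 2168 FPM off dox (-0.75, limma adjusted p = 0.126). *Vgf* and *Gal*, which encode a granin-like protein and the neuropeptide galanin, were fitted at -1.29 and -2.17, and in *Gal* the level on dox ranged from 6.10 to 37.98 FPM. *Cpd*, *Scg2*, *Ptprn2* and *Resp18* were fitted at 0.011 to 0.12, so that not every member was lower. The summed level of the list was 7470, 9540 and 8369 FPM on dox and 5807, 6173 and 5000.1 FPM off dox, without overlap. Its lowest value was in 3d -dox replicate 3. That mouse had the highest sum of somatotroph, lactotroph and thyrotroph markers (782 FPM) and the largest share of reads assigned to no annotated feature (33.9%). The part of either in the list's level was not tested.

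*Pomc* itself was at 35872.5, 34394 and 36965 FPM on dox and at 23410.3, 28065 and 11837 FPM off dox. No mouse off dox reached the level on dox, and 3d -dox replicate 3 was the lowest by far. The log2 fold change was -0.85 (SE 0.46, limma adjusted p = 0.367), so the difference did not pass the test. The transcription factors of the melanotroph and its dopamine receptor overlapped between groups: *Pax7* was at 175, 120 and 175 FPM on dox and at 157, 171 and 129 FPM off dox, *Tbx19* was fitted at 0.18 and *Drd2* at 0.0089. *Crhr1*, the receptor for corticotropin-releasing hormone, which corticotrophs carry, was at 0.724, 0.187 and 0.664 FPM on dox and at 1.37, 1.43 and 3.27 FPM off dox (1.27, limma adjusted p = 0.0724). Of the 10 melanotroph and corticotroph markers, 7 had estimates above 0 and 3 below, where 51.9% of all genes were above 0. Their median was 0.064, or -0.043 without 16w +dox replicate 2.

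Genes for protein synthesis, folding and energy had small downward medians without a call. The 73 cytosolic ribosomal protein genes had a median of -0.21, 67 below 0 (against 48.1% of all genes) and 36 lower at an unadjusted p under 0.05 (against 8.7% of all genes). *Rps15a*, a protein of the small subunit, was at 39.7, 43.3 and 40.5 FPM on dox and at 34.8, 30.2 and 30.1 FPM off dox (-0.38, limma adjusted p = 0.0609). The 75 nuclear-encoded subunits of the respiratory chain had a median of -0.19, 68 below 0 and 29 lower at that p, with *Cox5b*, a subunit of cytochrome c oxidase, at 25.0, 25.0 and 25.1 FPM on dox and 20.2, 20.7 and 19.4 FPM off dox. The ribosomal median was -0.14 when either 3d -dox replicate 3 or 16w +dox replicate 2 was left out, and the respiratory median -0.16 and -0.17. Scaled by totals of recovered reads they were at -0.058 and -0.046, where the median of all genes was 0.143.

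Of 23 genes of protein folding in the endoplasmic reticulum 22 were below 0, with a median of -0.21, and of 31 genes of hypoxia and glycolysis 23 were below 0, also with a median of -0.21. Scaled by totals of recovered reads these medians were -0.055 and -0.068, where the median of all genes was 0.143. The part of the larger share of reads assigned to no annotated feature off dox in these 4 lists was not tested. *Hyou1*, a chaperone of the endoplasmic reticulum, was at 116, 166 and 138 FPM on dox and at 99.1, 114 and 76.7 FPM off dox (-0.53, limma adjusted p = 0.164). *Gapdh*, the glycolytic enzyme often used for normalization, was at 163, 162 and 165 FPM on dox and at 121, 141 and 132 FPM off dox, every mouse lower (-0.32, limma adjusted p = 0.0794). *Egln3*, an oxygen sensor that hypoxia induces, went from 9.11, 11.1 and 7.35 FPM to 4.17, 4.53 and 5.74 FPM (-0.86, limma adjusted p = 0.0679).

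**Figure D3:**
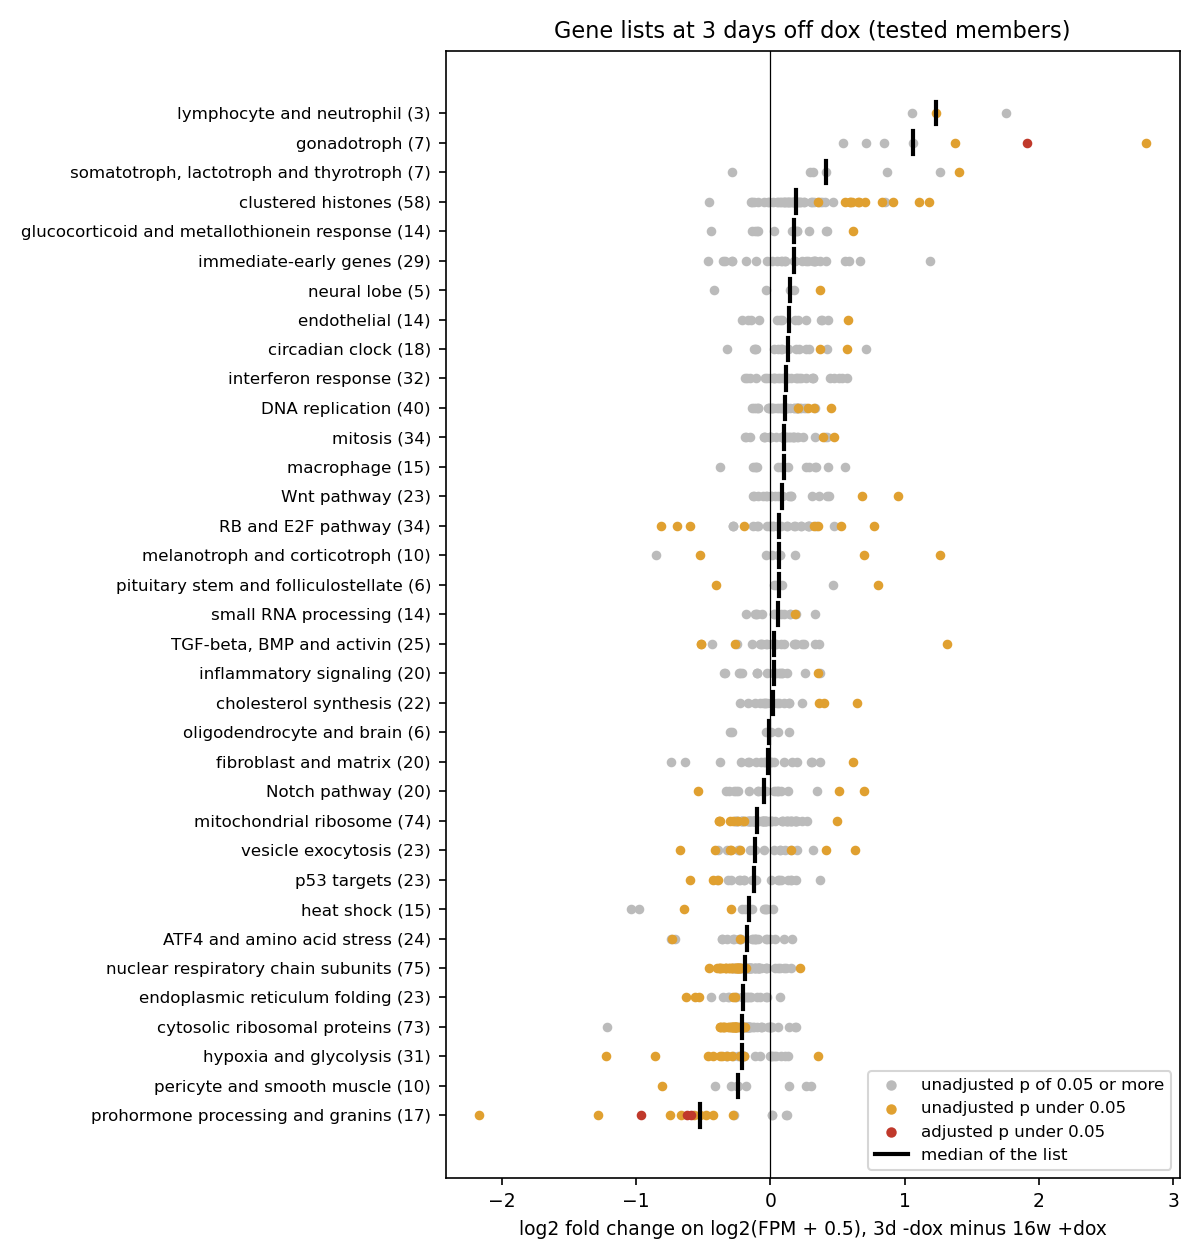
Log2 fold change at 3d -dox against 16w +dox for the tested members of each gene list with at least 3 of them, the number in brackets. Each point is a gene, coloured by its p, and the black bars are medians. The prohormone list has the lowest median, -0.53, and its 3 members past the adjusted p lie on the left, while *Lhb* is the only red point on the right.

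Interferon genes had a median of 0.12 (0.058 without 16w +dox replicate 2) with 25 of 32 members above 0 and 0 past an unadjusted p of 0.05 in either direction. Inflammatory genes had a median of 0.026 (-0.025 without 3d -dox replicate 3) with 1 of 20 higher at that p. The p53 targets had a median of -0.12 (0.013 when scaled by totals of recovered reads, -0.19 without 3d -dox replicate 3) with 3 of 23 lower. At that p 7.95% of all genes were higher and 8.7% lower. Among the 3 p53 targets was *Cdkn1a*, the CDK inhibitor p21, at 7.51, 4.36 and 6.30 FPM on dox and 3.74, 3.14 and 4.45 FPM off dox. In the Notch pathway, a receptor and a ligand had opposite signs: *Notch2* was at 10.96, 10.1 and 10.4 FPM on dox and 19.4, 15.4 and 17.4 FPM off dox (0.70, limma adjusted p = 0.0983), and *Jag2* at 50.6, 47.4 and 47.0 FPM on dox and 31.6, 42.0 and 27.5 FPM off dox (-0.54, limma adjusted p = 0.0865). *Bmp7*, a ligand of the BMP pathway, was at 1.30, 0.267 and 1.40 FPM on dox and at 3.37, 3.26 and 2.26 FPM off dox (1.31, limma adjusted p = 0.0794). In each of these 3 genes the groups did not overlap, as was the case for 21.6% of all genes, and the adjusted p was missed.

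Summed markers of blood and stroma overlapped between the groups. Neutrophil and lymphocyte markers, of which 3 of 16 were measured, summed to 0.324, 0.134 and 2.78 FPM on dox and to 0.673, 1.79 and 33.2 FPM off dox, and *Slc4a1*, an anion exchanger of red cells, was at 0.324, 1.497 and 0.383 FPM on dox and 1.22, 1.57 and 12.0 FPM off dox. Both were highest in 3d -dox replicate 3. Without that mouse the median of the 3 neutrophil and lymphocyte markers went from 1.23 to 0.31. Macrophage markers summed to 32.7 to 39.3 FPM on dox and to 32.9 to 50.7 FPM off dox, endothelial markers to 39.4 to 62.9 and 35.6 to 64.7 FPM, and fibroblast and matrix markers to 221 to 299 and 223 to 338 FPM, each with overlap. The part of these cells in the called genes was not tested.

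Set beside the females, 1 of the 17 called genes other than GFP passed the adjusted p at 1d -dox against the same 16w +dox mice (0.1% of all genes did), and 1 at 5d -dox (0.509% of all genes), in both cases *Lhb*, which was lower there. It averaged 0.242 FPM at 1d -dox and 0.204 FPM at 5d -dox. *Dclk3* was at a log2 fold change of 1.74 after 1 day, 1.87 after 3 days and 0.41 after 5 days. *Sstr1* was at 0.82, 1.53 and 0.97, and *Gda* at -0.37, 1.15 and 0.32. *Bdnf* was at -0.31, -1.15 and -0.43, and *Klhl40* at -0.40, -1.30 and -0.26. Since these genes were selected by their change at 3 days, larger values at 3 days follow from that choice, and all comparisons share the same 3 control mice.

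*Scg5* (chr2:113776313-113829091) lay between 178 and 207 FPM at 16w +dox, between 156 and 197 FPM at 1d -dox, between 117 and 129 FPM at 3d -dox and between 181 and 236 FPM at 5d -dox. Its level at 3 days was below that of both female groups. The log2 difference was -0.53 against 1 day (SE 0.10, limma adjusted p = 0.0212) and -0.67 against 5 days (SE 0.11, limma adjusted p = 0.00847), comparisons in which 3.53% and 6.63% of all genes passed the adjusted p. *Scg5* was picked for its fall at 3 days, and that choice favors lower values at 3 days in both comparisons. Sex and day cannot be told apart in either of them.

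**Figure D4:**
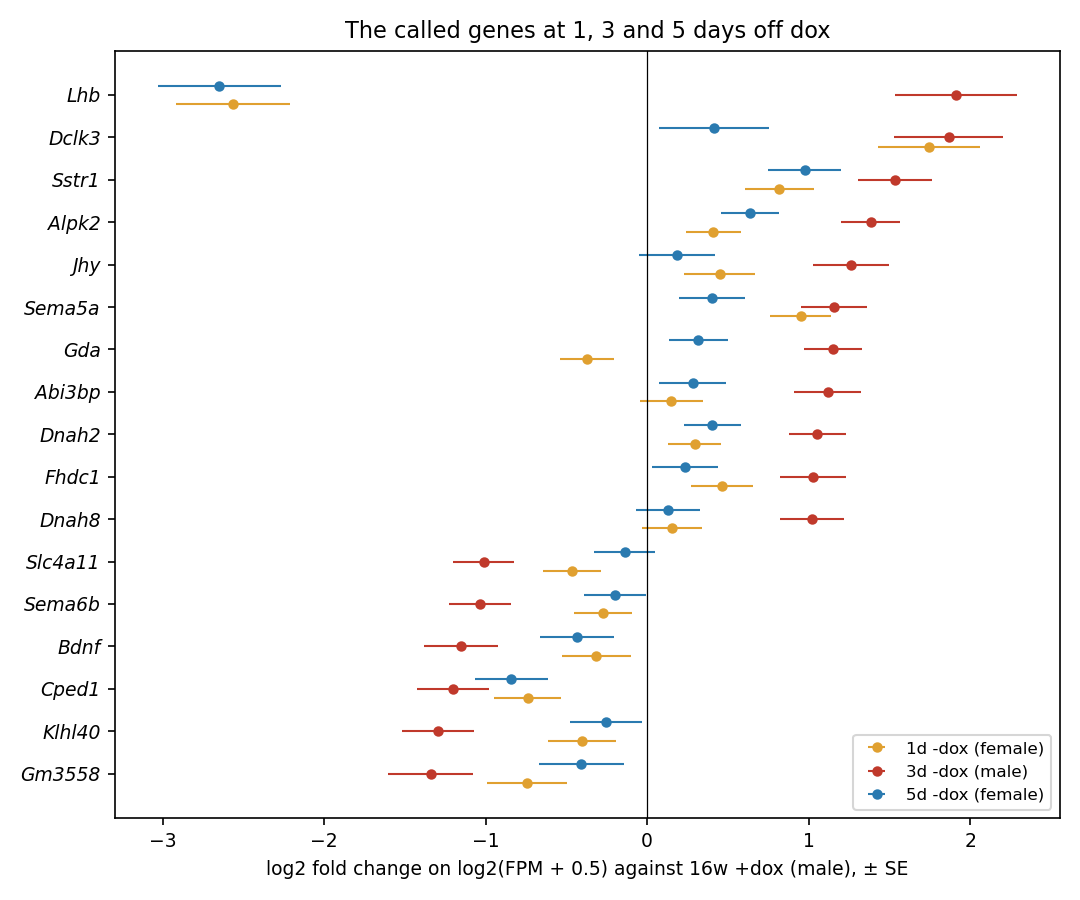
Log2 fold change (± SE) of the 17 called genes other than GFP against the 16w +dox males, at 1, 3 and 5 days off dox. The 1d -dox and 5d -dox mice are female and the genes were chosen at 3d -dox. *Lhb* lies at -2.57 and -2.65 in the females and at 1.91 in the males off dox.

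The long-term experiment shares no mouse with the short-term one and was used to look again at the genes past the adjusted p at 3 days, in mice of both sexes and with libraries made by poly(A) selection. Of the 28 genes that were lower at 3 days, 27 were in that table, and 12 of these were higher in 12w-res than in 12w+dox at an adjusted p under 0.05 while 0 were lower. In that comparison 19.4% of all genes were higher and 18.3% lower at the same threshold. Of the 22 genes that were higher at 3 days, 21 were in the table, of which 2 were higher and 4 lower. *Nucb2*, at -0.96 after 3 days, was one of the 12. In the long-term mice it lay between 57.0 and 110 FPM on dox and between 219 and 342 FPM in 12w-res (log2 fold change 1.90, SE 0.21). *Scg5* was at 480 to 798 FPM on dox and 1158 to 1443 FPM in 12w-res (0.92), and *Bdnf* at 32.6 to 46.3 and 48.1 to 89.4 FPM (0.95). In the other direction, *Sstr1* rose at 3 days and was at 65.5 to 104 FPM on dox and 19.6 to 67.5 FPM in 12w-res (-1.32), and *Dnah2* was at 4.31 to 7.93 and 1.06 to 2.48 FPM (-1.69).

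These counts depended on how the long-term table was scaled. *Pomc* took 39.1% to 43.2% of the gene reads in 12w-res and 12.9% to 23.0% in 12w+dox, and with totals of recovered reads the median of all genes there moved to -0.61. Under that scaling 3 of the 27 genes were higher and 11 lower, although 23 of the 27 still lay above the median of all genes. With TMM scaling the counts were 12 and 0. The 2 experiments differed in age, in time on dox and in library preparation as well as in the time off dox, and these cannot be told apart.

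**Figure D5:**
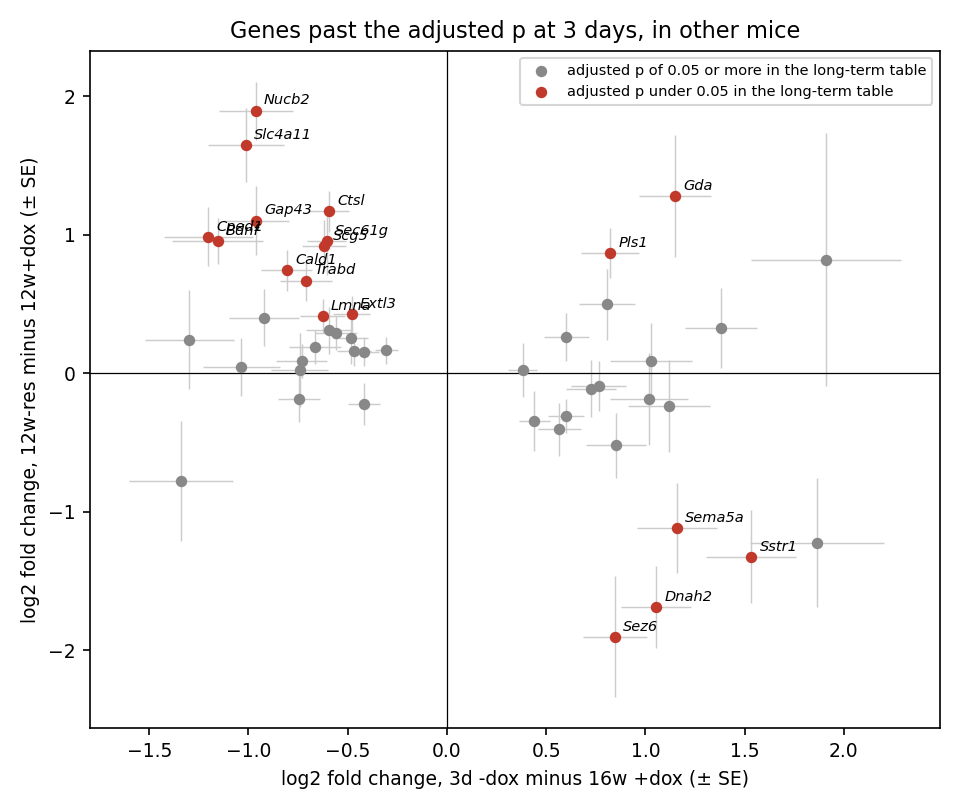
Genes past the adjusted p at 3 days that were also in the long-term table, with the log2 fold change at 3d -dox against 16w +dox on the horizontal axis and that of 12w-res against 12w+dox on the vertical axis, both ± SE. Red points passed an adjusted p under 0.05 in the long-term experiment, 12 of them in the upper left and 0 in the lower left.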

How the data were processed

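The comparison, the gene lists and the genes to name were chosen with earlier results of these data known. The authors mapped reads to mm10 with STAR, kept RefSeq genes with enough reads in one condition and deposited per mouse a signal, scaled with DESeq2 size factors and called FPM here. The counting tool and its use of strand are not given in the sources used here. All 182091 values of the short-term experiment and all 183780 of the long-term one came out as whole reads (100%, tolerance 0.1 reads) once divided by what 1 read is worth, so reads could be recovered for count tests. The short-term file has 4 lines that name no gene, holding 68.8% to 71.8% of a library in the 6 mice, and the long-term file 2. They were left out. No sample column was unmatched (0). RefSeq for GRCm38.p6 held 13964 of 14007 gene names and supplied positions. The target site came from the study's oligo list and was placed with GENCODE transcripts.

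The test was limma 3.58.1 (R 4.3.3) on log2(FPM + 0.5), fitted to all 13 short-term mice with 1 mean per group, a trend in the prior variance and Benjamini-Hochberg adjustment over all genes. It used genes that reached 10 recovered reads in over 50% of any group's mice. Calls needed an adjusted p below 0.05 together with a log2 fold change beyond 1 in size. Fold changes on this scale understate those of low genes. The long-term mice had their own fit. The labels do not say whether the mice of a group shared a litter. Alternatives were edgeR 4.0.16 and DESeq2 1.42.0 on the recovered reads, other scalings, pseudocounts and filters, the 6 males alone, a replicate block and leaving out each mouse. For the long-term fit, 3 alternatives were chosen after seeing the data. The functions that fit limma, edgeR and DESeq2 were tested on simulated reads with known fold changes, the other steps were not. Named were GFP, *Rb1*, 5 cell cycle genes the study shows at these times, all called genes and, per list, the 3 members with the smallest p and, for cell types, the most abundant marker. Any other gene was picked with its values in view. The list of mitochondrially encoded subunits had 0 of 26 names in the table. Counting error is smallest for abundant genes, and the number of mice limits the precision of all.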

Additional observations from a re-analysis of the deposited data

Results flagged for a closer look

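Only 1d -dox, with 4 mice, was large enough to be searched for a mouse far from the others, which was done for 24 genes (GFP, *Rb1*, the 5 cell cycle genes and the other called genes). It found 3 of 24, where chance gives about 1 in 20. GFP was at 309.98 FPM in 1 mouse while the other 3 lay between 670.4 and 741 FPM. *Cdk1* was lowest at 7.53 FPM, the other 3 mice being at 10.3 to 10.8 FPM. *Cped1* was highest at 9.13 FPM, the other 3 mice being at 6.43 to 6.69 FPM.

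For the same 24 genes, the level at 3d -dox differed from that at another day in 25 of 48 tests at an adjusted p under 0.05 (limma, adjusted over all genes), 10 against 1d -dox and 15 against 5d -dox. Of all genes, 3.53% differed from 1d -dox and 6.63% from 5d -dox at that threshold. The called genes were picked by their change at 3 days, and sex and day cannot be told apart in any of these tests. GFP had a log2 difference of -2.30 from 1d -dox (adjusted p = 0.00262) and of 3.29 from 5d -dox (adjusted p = 2.67e-04). *Lhb* was higher at 3d -dox by 4.48 and 4.56 (adjusted p = 5.27e-05 and 9.96e-05), and *Gda* by 1.52 and 0.83 (adjusted p = 0.00102 and 0.0216). Smaller differences from both 1d -dox and 5d -dox were found for *Alpk2* (0.97 and 0.75), *Abi3bp* (0.97 and 0.84), *Dnah2* (0.76 and 0.65), *Dnah8* (0.86 and 0.89), *Klhl40* (-0.89 and -1.04) and *Sema6b* (-0.76 and -0.84). *Bdnf* differed from 1d -dox alone at this threshold, by -0.84 (adjusted p = 0.0456, against 0.0696 for 5d -dox). From 5d -dox alone at this threshold differed *Dclk3* (1.45), *Jhy* (1.08), *Sema5a* (0.76), *Fhdc1* (0.80), *Gm3558* (-0.93) and *Slc4a11* (-0.87). The adjusted p of the genes given without one ranged from 0.0161 (*Alpk2* against 1d -dox) to 0.0489 (*Gm3558* against 5d -dox).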

How the results depend on the processing

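All 18 called genes kept their direction in each of the 17 alternatives that tested them, 14 were also called by edgeR and 18 by DESeq2, but only GFP was called with each mouse left out. Genes called higher numbered 72 by DESeq2, 7 with a pseudocount of 1, 0 with the 6 males alone (976 at an unadjusted p under 0.05) and 22 without a minimum fold, against the 11 reported. Those called lower numbered 32, 6, 1 and 28 under the same settings and 3 under totals of recovered reads, against the 7 reported. Leaving out 1 mouse gave 0 to 30 genes higher and 1 to 9 lower: 0 were higher without 16w +dox replicate 3 or 3d -dox replicate 3 (963 and 814 at an unadjusted p under 0.05) and 30 without 3d -dox replicate 2. The cause was not tested. Same-numbered mice did not deviate together (correlations of -0.0064, -0.18 and -0.096), and mice of different numbers correlated at -0.12 to 0.20. Deviations from the mean of 3 mice per group cannot tell whether the replicate numbers pair the mice. With the replicate number as a block, 1 gene was called higher and 0 lower (955 at an unadjusted p under 0.05), and GFP was at -3.41 with an adjusted p of 0.0753 by limma. The fits with fewer mice have fewer residual degrees of freedom.

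Of the genes past the adjusted p at 3 days, the long-term table scaled by totals of recovered reads had 3 of those lower at 3 days higher in 12w-res and 11 lower (12 and 0 with the deposited scaling), and 0 of those higher at 3 days higher and 12 lower (2 and 4 with the deposited scaling), where edgeR had 1 and 5. Single mice turned the direction of 10 other named genes, none called: without one mouse *Ccne2* ranged from -0.16 to 0.17, *Pcna* from -0.12 to 0.084, *Cdk1* from -0.016 to 0.30, *Sox2* from -0.035 to 0.082, *Col25a1* from -0.78 to 0.17, *Plvap* from -0.0052 to 0.60, *S100a8* from -0.072 to 1.64, *Gad2* from -0.67 to 0.29, *Slc17a6* from -0.87 to 0.54 and *Ttn* from -0.15 to 0.24. The 11592874 to 13036900 reads per library off dox leave genes with few reads, such as *Dnah8* and *Abi3bp*, least certain.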

Other observations

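The remaining gene lists held no gene past the adjusted p at 3 days by limma. Genes of the amino acid stress response driven by ATF4 had 3 of 24 members above 0 (median log2 fold change -0.18, 2 lower at an unadjusted p under 0.05), and heat shock genes 1 of 15 (-0.16, 2 lower). At that p 8.7% of all genes were lower. Scaled by totals of recovered reads, the ATF4 and heat shock medians were -0.075 and -0.018, where the median of all genes was 0.143. Mitochondrial ribosome genes had 23 of 74 members above 0, with a median of -0.097 (-0.059 without 3d -dox replicate 3) that scaling by totals of recovered reads turned to 0.042, and vesicle exocytosis genes 10 of 23, with a median of -0.11 (-0.062 without 3d -dox replicate 3) that this scaling turned to 0.024. Immediate-early genes had 21 of 29 members above 0 (0.17, 0 past the unadjusted p), circadian clock genes 14 of 18 (0.13, or 0.0016 without 16w +dox replicate 2), genes of the glucocorticoid and metallothionein response 9 of 14 (0.17, or 0.058 without 3d -dox replicate 3), cholesterol synthesis genes 14 of 22 (0.018, or 0.13 without 3d -dox replicate 3), small RNA processing genes 9 of 14 (0.054, or 0.029 without 16w +dox replicate 2), Wnt pathway genes 17 of 23 (0.087, or 0.018 without 3d -dox replicate 3) and TGF-beta, BMP and activin genes 14 of 25 (0.029, or 0.0037 without 3d -dox replicate 3, with 0.11 when 16w +dox replicate 2 was left out). Over all tested genes 51.9% were above 0, with a median of 0.0092.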
